A study of Mus musculus with 6 samples.

Results

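Genes of inflammatory caspases, of inhibitor of apoptosis (IAP) proteins and of the kinase RIPK2 were described in 6 RNA-seq libraries of the mouse. The genes were Casp1, Casp4 and Casp12, the inhibitor of apoptosis genes Birc2 and Birc3, and the kinase gene Ripk2. They were taken by gene name from the deposited count files, 6 rows of 53546. A row was kept if some of its bases lay on GRCm38 exons of the gene it is named for, and none of the 6 was dropped. The genes were chosen by name with their CPM (counts scaled to a fixed library total) and log2 fold changes between the groups already in view, so their values in that comparison are given as a description and support nothing. All libraries were labelled as intervertebral disc of C57BL/6 mice. The wild type group has 3 libraries and the group labelled intervertebral disc degeneration has 3. The labels give no allele, surgery, agent, age or time, do not say how degeneration came about, and do not say whether each library is a separate animal. Values of single libraries are given in the order of their replicate numbers, 1 to 3. p-values measure only the spread between these samples, whose source may be technical.

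Caspase-1 is cut into its active form on inflammasomes, cytosolic sensor complexes, and then matures interleukin 1 beta and interleukin 18 and cuts gasdermin D, which opens pores in the membrane. The product of mouse Casp4, also called caspase-11, binds bacterial lipopolysaccharide in the cytosol and cuts gasdermin D as well. Casp12 encodes a relative found at the endoplasmic reticulum. Birc2 and Birc3 encode cIAP1 and cIAP2, ubiquitin ligases of tumour necrosis factor receptor complexes, and Ripk2 encodes the adaptor kinase of the bacterial peptidoglycan sensors NOD1 and NOD2, to which IAP ligases attach ubiquitin. These genes are best known from myeloid cells, although many tissues express them.

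The 6 libraries did not form the groups that the labels name. Their totals ran from 3119215 to 4009562 counts. Over 20132 rows whose mean reached 1 CPM, Pearson's r of log2(CPM + 1) was 0.963 to 0.977 between degeneration 1 and the wild type libraries and 0.684 to 0.696 between degeneration 2 or 3 and the other 4 libraries. Rows of a library are not independent replicates of it. The summed level of 5 heart muscle markers was 35392 to 39048 CPM across the wild type libraries and degeneration 1 and 39.1 and 38.5 CPM in degeneration 2 and 3. The summed level of 6 kidney tubule markers was 33.3 to 49.1 CPM in the former and 10374 and 8252 CPM in the latter. Cartilage and disc matrix markers, 5 of which could be located, summed to no more than 21.2 CPM in any library, and Acan, the main proteoglycan of disc and cartilage, named after its values were seen, had at most 0.499 CPM. Results are therefore given for all 6 libraries, without degeneration 1, and without degeneration 2 and 3.

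Most rows of these files are out of register with GRCm38, and only 3656 of them have any base on exons of their own gene. Casp4 (chromosome 9, 5308828 to 5336783, plus strand), Casp12 (chromosome 9, 5345430 to 5373032, plus strand) and Ripk2 (chromosome 4, 16122733 to 16163647, minus strand) had 100% of their row on their own exons in GENCODE M21. Birc2 (chromosome 9, 7818227 to 7837064, minus strand) had 99.8% and Birc3 (chromosome 9, 7848699 to 7873186, minus strand) 99.8%, as both rows sit 1 base beside the annotated exons. Casp1 (chromosome 9, 5298517 to 5307265, plus strand) had 47.7%: its row covers all 1497 exon bases and another 1639 bases that lie on no annotated exon. Counts from those bases cannot be parted from counts on Casp1 exons. No member row touched exons of another gene. The 3 caspase genes stand side by side on the plus strand, with 1.56 kb between Casp1 and Casp4 and 8.65 kb between Casp4 and Casp12. Birc2 and Birc3 form another pair on the minus strand of the same chromosome, 11.6 kb apart and 2445 kb beyond Casp12.

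The stretches just before the 3 caspase genes are shown because all 3 genes were lower in each degeneration library, and they were searched for letters that inflammatory transcription factors are known to bind. They are the bases from 250 upstream of the RefSeq start site up to the first base before the GENCODE gene, on the plus strand of GRCm38, from the RefSeq table of build GRCm38.p6. They cover chr9:5298267-5298516 for Casp1, chr9:5308599-5308827 for Casp4 and chr9:5345226-5345429 for Casp12, and capitals mark matches to the motifs named after them.
Casp1: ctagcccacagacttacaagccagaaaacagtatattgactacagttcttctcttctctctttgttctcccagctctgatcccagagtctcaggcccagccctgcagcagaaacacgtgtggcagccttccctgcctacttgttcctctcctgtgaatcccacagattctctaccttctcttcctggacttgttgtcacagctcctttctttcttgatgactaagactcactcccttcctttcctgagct
Casp4: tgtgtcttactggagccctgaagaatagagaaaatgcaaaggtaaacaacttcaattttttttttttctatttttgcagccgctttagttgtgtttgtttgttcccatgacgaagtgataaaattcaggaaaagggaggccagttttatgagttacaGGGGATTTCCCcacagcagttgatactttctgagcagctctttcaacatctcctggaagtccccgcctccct
Casp12: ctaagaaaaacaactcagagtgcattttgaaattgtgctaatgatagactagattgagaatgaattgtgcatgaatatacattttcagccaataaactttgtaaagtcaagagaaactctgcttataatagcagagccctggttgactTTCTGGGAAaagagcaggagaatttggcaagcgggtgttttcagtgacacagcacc
In windows from 250 bases upstream to 50 downstream, on both strands, the NF-kappaB consensus was found in 4.51% of 32851 RefSeq promoters, TTCNNNGAA, the gamma-activated sequence that STAT factors bind, in 8.30%, the core of the interferon-stimulated response element in 3.44%, TGANTCA of AP-1 in 7.81% and TATAAA in 13.6%. Both Casp4 windows held the NF-kappaB consensus in 2 overlapping frames, 93 to 83 bases upstream of the start site used above, which is the run GGGGATTTCCC above. The Casp12 window held TTCTGGGAA at 102 to 94 bases upstream and again at 36 to 28 bases upstream, the latter inside the first GENCODE exon and not shown. The Casp1 window, the 2 windows of Birc2 and the window of Birc3 held none of these letters, and Ripk2 had no window in the table. A match describes the letters of the window and says nothing about binding in these samples.

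Casp1, Casp4 and Casp12 were each below the whole wild type range in all 3 degeneration libraries. Casp1 stood at 19.0, 20.4 and 19.3 CPM across the wild type libraries and at 8.19, 7.53 and 7.05 CPM across the degeneration libraries. By CPM it was the most even of the caspases within a group, with means of 19.6 ± 0.763 CPM for wild type and 7.59 ± 0.569 CPM for degeneration (SD, n = 3). The degeneration values rest on 26, 26 and 22 read pairs, whose exact Poisson 95% intervals all end below 14.9 CPM, the lowest lower bound in wild type. These intervals cover counting error only. They are wider than the spread of Casp1 within either group, so its evenness is not read as a trait of the gene. Casp4, the lipopolysaccharide-binding caspase, stood at 38.9, 43.6 and 31.0 CPM across the wild type libraries and at 19.2, 15.6 and 17.6 CPM across the degeneration libraries. Wild type 3 was the lowest of its group, and the groups did not overlap (37.9 ± 6.35 and 17.5 ± 1.78 CPM, SD, n = 3 each). Casp12, the caspase of the endoplasmic reticulum, stood at 64.1, 66.0 and 46.4 CPM across the wild type libraries and at 32.1, 17.1 and 21.2 CPM across the degeneration libraries. Wild type 3 was again the lowest of its group, and degeneration 1 lay between wild type 3 and the other degeneration libraries. Of the 14967 rows tested, 8.65% had CPM that did not overlap with degeneration lower, and 3 of the 6 genes did.

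**Figure D1:**
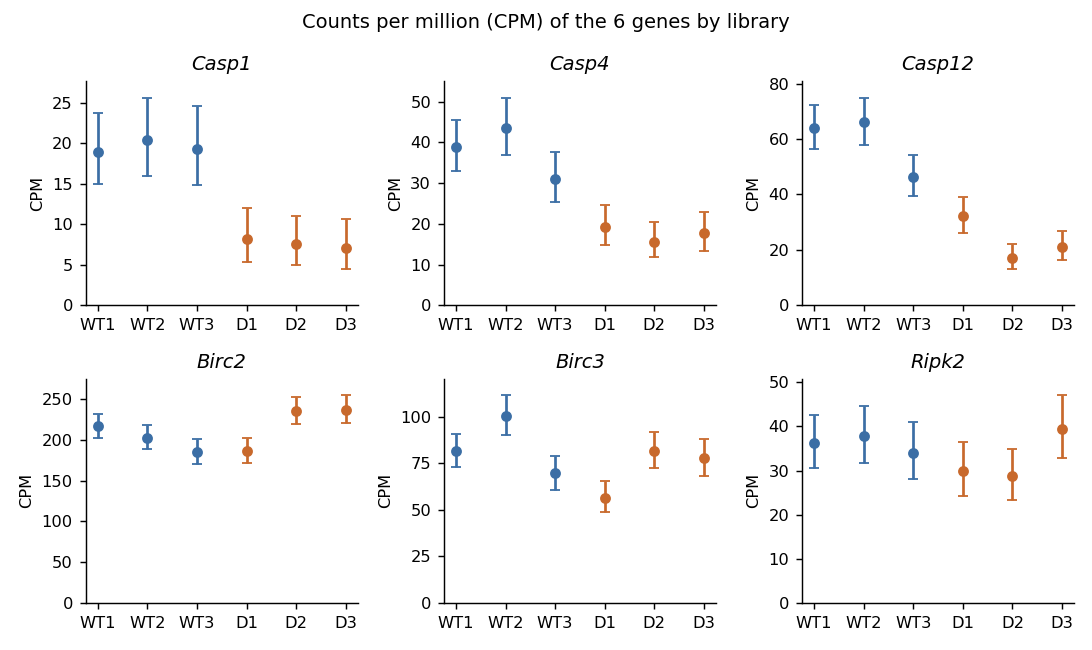
CPM of each gene (vertical axis, from 0) in wild type 1 to 3 (WT1 to WT3, blue) and degeneration 1 to 3 (D1 to D3, orange), with exact Poisson 95% intervals as bars. Casp1, Casp4 and Casp12 sit lower in all 3 degeneration libraries, for example Casp1 at 7.05 to 8.19 CPM against 19.0 to 20.4 CPM, while Birc2, Birc3 and Ripk2 overlap.

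Birc2 was the most abundant of the 6 genes and did not part the groups. It stood at 217, 203 and 185 CPM across the wild type libraries and at 187, 235 and 237 CPM across the degeneration libraries. Degeneration 1 matched the lower end of the wild type range, and degeneration 2 and 3 were above it by CPM. Birc3, whose product joins the same receptor complexes, stood at 81.6, 101 and 69.6 CPM across the wild type libraries and at 56.7, 81.7 and 77.9 CPM across the degeneration libraries. Here degeneration 1 was below every wild type library, and degeneration 2 and 3 lay within the wild type range. Ripk2 stood at 36.2, 37.7 and 34.1 CPM across the wild type libraries and at 29.9, 28.7 and 39.4 CPM across the degeneration libraries. Degeneration 3 was the highest library and degeneration 2 the lowest, so the groups overlapped.

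The scaling between libraries bears on these 3 genes. The TMM factors (trimmed mean of M values, edgeR's scaling between libraries) ran from 0.864 to 0.940 for the wild type libraries and degeneration 1, with 1.23 and 1.25 for degeneration 2 and 3. CPM from totals alone moved the median log2 fold change of all tested rows to 0.29. On the TMM scale Birc3 was 86.8, 114 and 76.7 CPM across the wild type libraries and 65.6, 66.2 and 62.4 CPM across the degeneration libraries, and Ripk2 was 38.5, 42.9 and 37.5 CPM and 34.6, 23.3 and 31.6 CPM. On that scale neither overlapped, so that 5 of the 6 genes were lower in every degeneration library, beside 11.9% of all tested rows. Birc2 still overlapped, at 204 to 231 CPM and 190 to 216 CPM. The mean ratio of Birc2 was 1.09 of wild type by CPM and 0.897 on the TMM scale, so its direction depends on the scaling. The caspases did not overlap on either scale, with Casp1 at 0.388 and 0.329, Casp4 at 0.462 and 0.392 and Casp12 at 0.399 and 0.350 of the wild type mean by CPM and by TMM-scaled CPM. On the TMM scale Casp1 was at 9.47, 6.11 and 5.65 CPM across the degeneration libraries, less even than by CPM.

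Ratios between genes inside a library do not depend on that scaling. There were 40.9, 42.9 and 37.9 counts of Casp1, Casp4 and Casp12 together per 100 counts of Birc2 and Birc3 across the wild type libraries, and 24.5, 12.7 and 14.6 across the degeneration libraries. All 3 degeneration libraries were below the wild type range, degeneration 2 and 3 more so than degeneration 1. Against Ripk2, Casp1 had 52.4, 54.1 and 56.6 counts per 100 across the wild type libraries and 27.4, 26.3 and 17.9 in degeneration 1 to 3. Casp12 had 177, 175 and 136 counts per 100 of Ripk2 across the wild type libraries and 107, 59.6 and 53.7 in degeneration 1 to 3.

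The make-up of the caspase counts varied less than their sum. Casp12 gave 52.6%, 50.8% and 48.0% of the counts of the 3 caspases across the wild type libraries and 54.0%, 42.4% and 46.2% in degeneration 1 to 3. The Wilson 95% intervals of these shares overlapped between all libraries, from 48.1% to 56.9% in wild type 1 and from 34.5% to 50.8% in degeneration 2, on 489 and 139 counts. Casp4 gave 31.9% to 33.5% in wild type and 32.3%, 38.8% and 38.5% in degeneration 1 to 3, and Casp1 15.5% to 19.9% and 13.8% to 18.7%. Shifts of a few percentage points were not detectable at this depth. Birc3 gave 27.3%, 33.2% and 27.3% of the Birc2 and Birc3 counts across the wild type libraries and 23.3%, 25.8% and 24.7% in degeneration 1 to 3, lower in each degeneration library by a margin smaller than the spread within wild type.

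**Figure D2:**
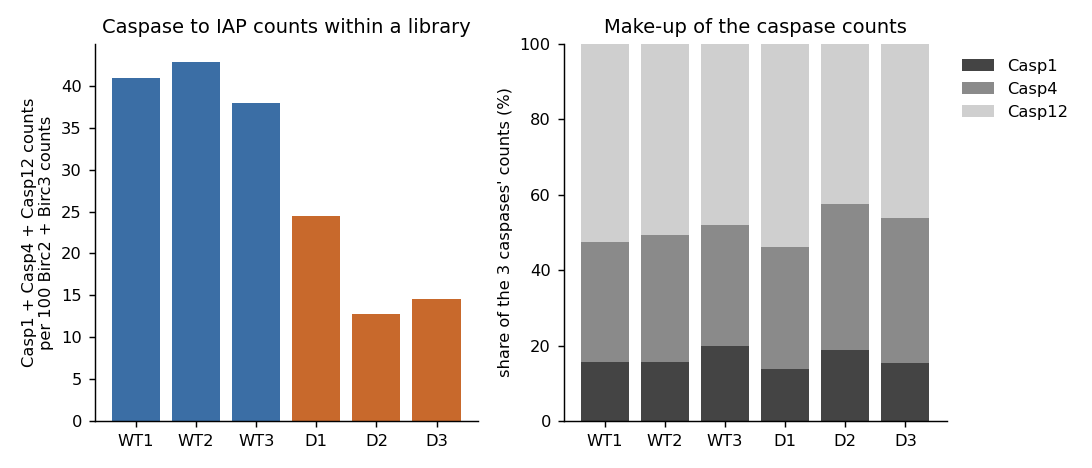
Left, summed counts of Casp1, Casp4 and Casp12 per 100 counts of Birc2 and Birc3 in each library, with wild type (WT1 to WT3) in blue and degeneration (D1 to D3) in orange. Right, the share of each caspase in the counts of the 3 (percent). The ratio is 37.9 to 42.9 in wild type and 12.7 to 24.5 in degeneration, and Casp12 makes up 42.4% to 54.0% in every library.

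Per kb of exon the order of the genes differed between the groups. In wild type Birc2 stood highest, at 40.5 to 47.4 CPM per kb. Birc3 at 13.9 to 20.1, Casp12 at 12.1 to 17.2, Casp1 at 12.7 to 13.6 and Ripk2 at 12.1 to 13.4 CPM per kb overlapped in their ranges, and Casp4 was the lowest at 8.37 to 11.8 CPM per kb. In degeneration Birc2 stood at 40.8 to 51.8, Birc3 at 11.3 to 16.3 and Ripk2 at 10.2 to 14.0 CPM per kb. All 3 caspases were below these, with Casp12 at 4.45 to 8.36, Casp1 at 4.71 to 5.47 and Casp4 at 4.22 to 5.18 CPM per kb, ranges that overlapped each other. For Casp1 these levels assume that all counts fell on its 1497 exon bases. Over the whole row it had 6.04 to 6.51 CPM per kb in wild type and 2.25 to 2.61 CPM per kb in degeneration, which would put it below Casp4.

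In the fit across all rows (edgeR quasi-likelihood test, TMM scaling, all 6 libraries) the log2 fold change of degeneration against wild type was -1.56 ± 0.24 (SE) for Casp1, -1.30 ± 0.26 for Casp4 and -1.48 ± 0.38 for Casp12. It was -0.10 ± 0.16 for Birc2, -0.45 ± 0.19 for Birc3 and -0.35 ± 0.19 for Ripk2. Of the 6 genes 0 were called at an adjusted p under 0.05, beside 0% of 14967 rows, where an unadjusted p under 0.05 was found for 2596 rows. With limma-trend the count was likewise 0. DESeq2 called 3 of the 6, the caspases, with degeneration lower, where 0.629% of 17476 rows were so called. The choice of these genes used this comparison, so nothing is read from those counts.

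With single libraries left out the caspases kept their direction. Their groups did not overlap on either scale, so leaving out a library could hardly turn it, and nothing is read from this. Without degeneration 1 the log2 fold change was -1.84 ± 0.24 for Casp1, -1.61 ± 0.21 for Casp4, -2.05 ± 0.21 for Casp12, -0.50 ± 0.18 for Birc3 and -0.51 ± 0.19 for Ripk2, and 5 of the 6 genes were called lower (edgeR), as were 24.5% of 17272 rows. That comparison sets libraries with abundant heart muscle markers against libraries with abundant kidney tubule markers. Birc2, at -0.19 ± 0.13, was not called there. Without degeneration 2 and 3 the single remaining degeneration library, whose heart and kidney marker sums were close to those of wild type, was taken to vary like the wild type libraries. The log2 fold changes were then -1.17 ± 0.31 for Casp1, -0.90 ± 0.29 for Casp4, -0.80 ± 0.28 for Casp12, -0.03 ± 0.19 for Birc2, -0.49 ± 0.26 for Birc3 and -0.19 ± 0.23 for Ripk2. None of the 6 was called, and 0.0125% of 15997 rows were, with 968 rows at an unadjusted p under 0.05 (edgeR, the only tool run on these 4 libraries).

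**Figure D3:**
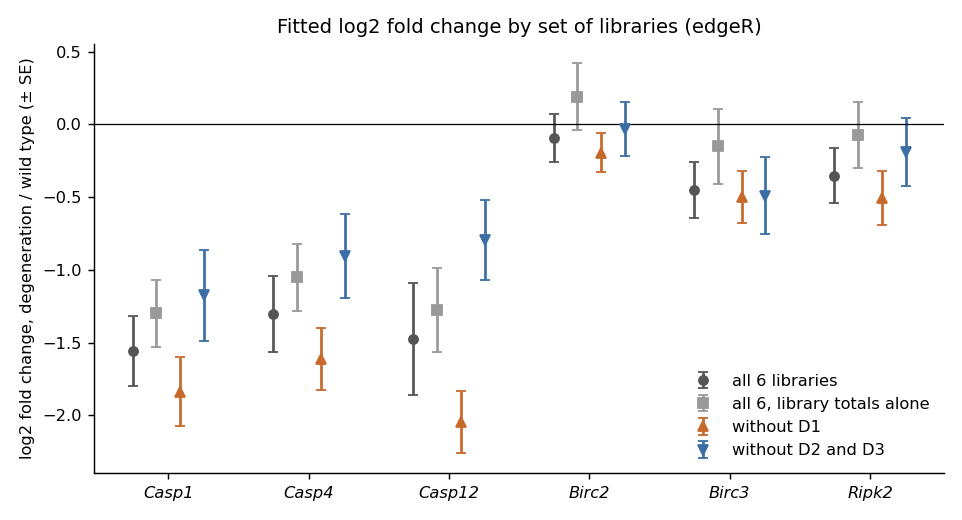
Fitted log2 fold change of degeneration over wild type (vertical axis, ± SE, edgeR) of each gene in 4 fits, with all 6 libraries (circles), all 6 scaled by library totals alone (squares), without degeneration 1 (D1, upward triangles) and without degeneration 2 and 3 (D2 and D3, downward triangles). The 3 caspases are below 0 in all 4, from -0.80 to -2.05, and Birc2 lies within 0.20 of 0.

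By CPM, summed markers of macrophages, endothelium and fibroblasts were lower in every degeneration library, as the caspases were, but on the TMM scale the macrophage and fibroblast sums overlapped between the groups. In bulk tissue, fewer cells of a type and less RNA per cell cannot be told apart. The 3 caspases summed to 122, 130 and 96.8 CPM across the wild type libraries and to 59.5, 40.3 and 45.8 CPM across the degeneration libraries. Of 12 macrophage markers 6 were located, none at 0 in all libraries, and they summed to 296, 253 and 179 CPM across the wild type libraries and to 174, 138 and 134 CPM across the degeneration libraries. On the TMM scale the macrophage sum was 315, 287 and 198 CPM for wild type and 202, 112 and 108 CPM for degeneration. The caspase sum was 130, 148 and 107 CPM and 68.9, 32.6 and 36.7 CPM on that scale. Of the 6 macrophage markers, 5 had a negative and 1 a positive log2 fold change, with a median of -1.29 (edgeR, all 6 libraries). On the TMM scale 2 were lower without overlap, beside 12.3% of tested loci. Lyz2, lysozyme, was at 122, 79.1 and 46.7 CPM for wild type and 42.5, 6.66 and 10.3 CPM for degeneration. Csf1r, the receptor that macrophages need to survive, was the positive one. It had 64.9 to 68.8 CPM for wild type against 61.1, 114 and 96.8 CPM for degeneration. The 6 located endothelial markers summed to 1020 to 1201 CPM across wild type and to 750, 416 and 447 CPM across the degeneration libraries. All 6 had a negative log2 fold change, with a median of -1.05 (edgeR, all 6 libraries). On the TMM scale 5 were lower without overlap, beside 12.3% of tested loci. Pecam1 was at 512, 492 and 420 CPM for wild type and 325, 182 and 187 CPM for degeneration. Tie1 was at 229, 245 and 209 CPM and 153, 57.7 and 65.1 CPM. Emcn, named after its values were seen, overlapped, with a log2 fold change of -0.06. The 5 located fibroblast markers summed to 3368, 1744 and 1161 CPM across the wild type libraries and to 1116, 782 and 923 CPM across the degeneration libraries. On the TMM scale the fibroblast sum was 1278 CPM for wild type 3 against 1292 CPM for degeneration 1, while the endothelial sum did not overlap, at 1123 CPM or more against 868 CPM or less. Of the 5 fibroblast markers, 4 had a negative and 1 a positive log2 fold change (edgeR, all 6 libraries). On the TMM scale 3 were lower without overlap, where 12.3% of all tested loci were. Col1a2, a collagen chain, was at 1749, 832 and 448 CPM for wild type and 408, 317 and 353 CPM for degeneration. Fn1, fibronectin, was at 551, 275 and 202 CPM and 160, 178 and 189 CPM. Pdgfra, a growth factor receptor, and Dcn were named after their values were seen. Pdgfra had 143 to 180 CPM for wild type against 169, 208 and 282 CPM for degeneration. Dcn, the matrix proteoglycan decorin, had 175 to 259 CPM for wild type against 250.3, 24.3 and 31.1 CPM for degeneration, so degeneration 1 lay within the wild type range. Il7r, the single located marker of the T and NK cell list, was at 5.12 to 11.2 CPM and 2.56 to 4.35 CPM. No neutrophil marker was located. The part of these markers in the caspase levels was not tested.

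**Figure D4:**
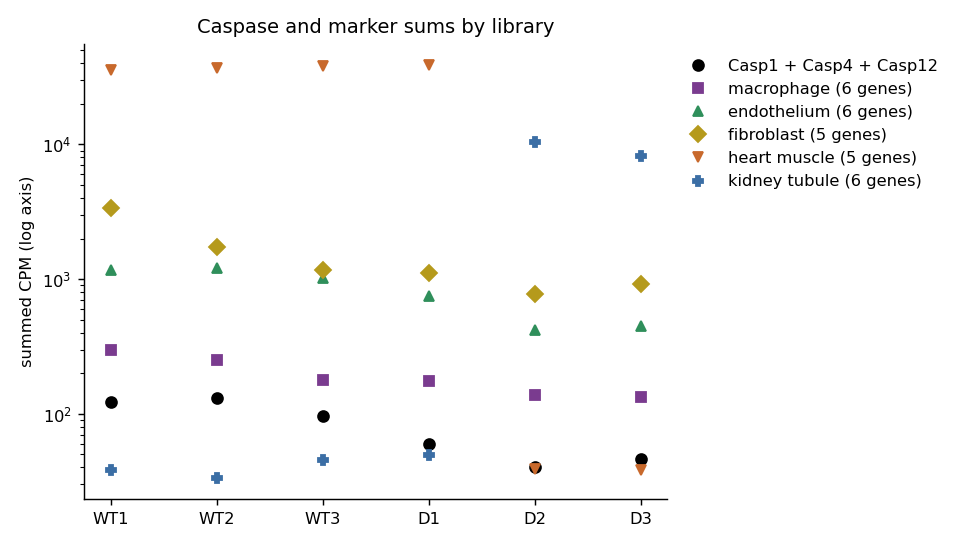
Summed CPM (log axis) of Casp1, Casp4 and Casp12 and of the located markers of 5 cell types in wild type 1 to 3 (WT1 to WT3) and degeneration 1 to 3 (D1 to D3). Heart muscle markers are at 39.1 and 38.5 CPM and kidney tubule markers at 10374 and 8252 CPM in D2 and D3, and by CPM the caspase, macrophage, endothelial and fibroblast sums are lower in all 3 degeneration libraries. On the TMM scale, not drawn, the macrophage and fibroblast sums overlap between the groups.

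Other genes of the same pathways were read by position, from rows lying mainly on that gene's GRCm38 exons, and 0 of them were called with all 6 libraries, where 0% of 5434 loci were called and 1064 had an unadjusted p under 0.05 (edgeR). The median log2 fold change over all loci was -0.00025. Many list genes have no such row and were not analysed here. Of 21 genes of inflammasomes and pyroptosis 6 were located and 3 tested, all 3 with a negative log2 fold change and a median of -0.37. Gsdmd, the gasdermin that these caspases cut, was at 23.4, 29.1 and 24.4 CPM across the wild type libraries and 12.6, 9.27 and 12.5 CPM across the degeneration libraries, counted over 208 exon bases. Nek7, a kinase needed by the NLRP3 inflammasome, overlapped, at 39.4 to 48.9 CPM and 37.5 to 51.9 CPM, as did Naip2, of a family of sensors of bacterial proteins, at 14.5 to 19.9 CPM and 13.2 to 17.1 CPM, although on the TMM scale Naip2 did not overlap. The other 3 located genes had at most 3.15 CPM in any library. Without degeneration 1, Gsdmd fell and the other 2 tested genes were not called, where 26.2% of 5969 loci fell and 26.8% rose. That fit, used for the lists below as well, sets libraries with abundant heart muscle markers against libraries with abundant kidney tubule markers. Its calls are therefore not read as changes of a pathway.

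Around RIPK2, 6 of 18 NOD receptor and ubiquitin partners were located and tested, 2 with a negative and 4 with a positive log2 fold change and a median of 0.07. Ikbkb, the IKK-beta kinase of NF-kappaB activation, was at 66.3 to 68.8 CPM across wild type and 58.6, 146 and 161 CPM across the degeneration libraries. Itch, a ubiquitin ligase, had 87.2, 171 and 166 CPM across the degeneration libraries and at least 75.7 CPM in each wild type library. Otulin, which removes linear ubiquitin chains, was at 62.4 to 78.9 CPM across wild type and 56.0 to 75.9 CPM across degeneration. It overlapped by CPM but was lower without overlap on the TMM scale, as 12.3% of tested loci were. For Ikbkb and Itch only degeneration 2 and 3 stood above the wild type range. Without degeneration 1, Ikbkb and Itch rose and Otulin and Map3k7 fell, where 26.2% of 5969 loci fell and 26.8% rose. Map3k7, the TAK1 kinase, was named after its values were seen.

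Of 21 tumour necrosis factor receptor and NF-kappaB genes 6 were located and tested, 3 with a negative and 3 with a positive log2 fold change and a median of 0.03. Nfkb1, the p105 and p50 subunit, was at 20.2, 22.6 and 23.2 CPM across the wild type libraries and 15.7, 16.2 and 17.3 CPM across the degeneration libraries. Relb, of the non-canonical pathway that cIAP proteins hold back, was at 11.7, 14.8 and 11.5 CPM and 7.24, 10.1 and 8.66 CPM. Neither overlapped between the groups, and on the TMM scale 12.3% of tested loci were lower without overlap. Cflar, the caspase-8 inhibitor cFLIP, was at 233 to 267 CPM across wild type and 206, 444 and 452 CPM across the degeneration libraries. Without degeneration 1, Nfkb1 and Relb fell, Cflar rose, and Tnfrsf1a, the receptor itself, was not called, with a log2 fold change of -0.11. In that fit 26.2% of 5969 loci fell and 26.8% rose.

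Of 14 genes of apoptotic caspases and the apoptosome 4 were located and 3 tested, 2 with a negative and 1 with a positive log2 fold change and a median of -0.40. Casp9, the caspase of the apoptosome, was at 27.2, 20.4 and 22.6 CPM across the wild type libraries and 23.0, 69.5 and 58.7 CPM across the degeneration libraries, so degeneration 1 was within the wild type range and degeneration 2 and 3 were above it. Apaf1, the apoptosome scaffold, was at 30.4 to 38.6 CPM across wild type and 19.2 to 28.7 CPM across degeneration. Casp14, a caspase of skin named after its values were seen, had 0 counts in every library, which allows up to 0.748 to 0.962 CPM. Of the 3 tested genes of that list, Casp9, Apaf1 and Mcl1, Casp9 rose and the other 2 fell without degeneration 1. In that fit 26.2% of 5969 loci fell and 26.8% rose. Of 12 symbols of the IAP family and its antagonists 5 were located and 3 tested, with a median of -0.24. Birc6, the giant IAP, was at 168 to 173 CPM across wild type and 176, 240 and 242 CPM across the degeneration libraries. It was higher without overlap on both scales, and the share of all loci that were so was not counted. Naip2, also in this list, was lower without overlap on the TMM scale. None of the 3 tested genes of the IAP list was called without degeneration 1.

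Endoplasmic reticulum stress genes, listed because of the place of caspase-12 in the cell, were 4 of 12 located and tested, 1 with a negative and 3 with a positive log2 fold change and a median of 0.20. Pdia4, a protein folding enzyme, had 98.5, 288 and 274 CPM across the degeneration libraries and at most 181 CPM across wild type. Ern1, the IRE1 sensor, overlapped at 38.9 to 45.1 CPM and 44.4 to 60.3 CPM. Without degeneration 1, Pdia4 and Eif2ak3 rose and Atf6 fell, where 26.2% of 5969 loci fell and 26.8% rose. Interferon response genes were 5 of 15 located and tested, 4 with a negative and 1 with a positive log2 fold change and a median of -0.59. Stat2, a transcription factor of the interferon response, was at 50.9, 56.2 and 37.7 CPM across the wild type libraries and 27.7, 38.2 and 48.1 CPM across the degeneration libraries, overlapping by CPM but not on the TMM scale. Without degeneration 1, Stat2, Oas1a and Oasl2 fell and Ifit1 and Ifit2 were not called, beside the same shares of all loci. In the fit without degeneration 2 and 3, medians were 0.0085 for inflammasomes and pyroptosis, 0.066 for RIPK2 partners and 0.043 for apoptotic caspases. They were -0.049 for endoplasmic reticulum stress, -0.091 for the IAP family and -0.26 for tumour necrosis factor receptor and NF-kappaB genes. Marker medians were -1.02 for fibroblasts, -0.50 for macrophages, -0.49 for endothelium, 0.30 for heart muscle and 0.27 for kidney tubule. With degeneration 1 as the sole degeneration library the median of the interferon list was -0.73 and that of all loci -0.02, and 0% of 5629 loci were called lower and 0.0178% higher.

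Neighbouring genes could be compared for Birc2, Birc3 and Ripk2. Within 500 kb of a member, 45 other rows lay at least 90% on their own exons and 11 of them were tested. None of the tested ones lay within 500 kb of the caspase genes, so the surroundings of the caspases were not compared. Beside Birc2 and Birc3, Tmem123 was at 140 to 177 CPM across wild type and 182 to 191 CPM across degeneration, above wild type by CPM but overlapping on the TMM scale, and Yap1, the effector of Hippo signalling, was at 310 to 409 CPM and 348 to 397 CPM. Mmp3, the matrix protease stromelysin 1, was the single one of the 11 tested neighbours that was lower in all degeneration libraries on the TMM scale. Of all 14967 rows tested, 11.9% were so, and nothing is read from this count. Mmp3 was at 25.7, 22.1 and 7.54 CPM across the wild type libraries and 4.72, 0 and 0.962 CPM across the degeneration libraries. Mmp12, the macrophage elastase, overlapped, with 27.7, 14.8 and 1.81 CPM for wild type against 0.630, 4.64 and 5.13 CPM for degeneration. Near Ripk2, Nbn and Osgin2 overlapped between the groups, and Decr1, a mitochondrial enzyme of fatty acid oxidation, was at 546 to 818 CPM across wild type, and degeneration 1 had 879 CPM where degeneration 2 and 3 had 453 and 362 CPM.

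**Figure D5:**
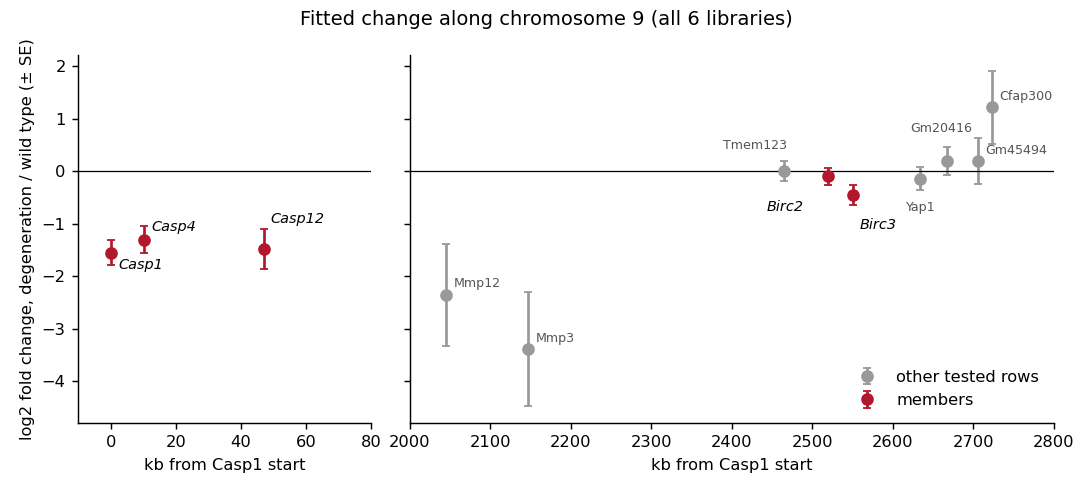
Fitted log2 fold change of degeneration over wild type (± SE, edgeR, all 6 libraries) against the distance from the Casp1 start on chromosome 9 in kb, for the members (red) and the other tested rows within 500 kb of a member (grey); the axis is broken between the caspase genes and the Birc genes. The 3 caspases lie between -1.30 and -1.56, and Birc2 and its neighbours Tmem123 and Yap1 lie near 0. Mmp3 is the lowest at -3.39, Mmp12 is at -2.35 and Cfap300 is the highest at 1.21.

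Over the 6 libraries the level of Casp1 ran most like that of Unc13b (Pearson's r = 0.988 of log2(CPM + 1)), Map3k8 (0.985), E230020D15Rik (0.983), Mgll (0.982) and Ifi207 (0.978), out of 5228 loci with at least 5 CPM on average. Map3k8, a kinase that acts in Toll-like receptor signalling, was at 56.9, 62.1 and 55.8 CPM across the wild type libraries and 34.9, 33.3 and 36.2 CPM across the degeneration libraries. Ifi207, of the interferon-inducible PYHIN family, was at 21.2, 25.2 and 18.7 CPM and 9.76, 6.66 and 6.09 CPM. Loci that ran most like Casp4 included Gm17823 (0.995), Tmem184b (0.987), Ccm2l (0.984) and Hdac5 (0.983). Between members, r was 0.965 for Casp1 and Casp4, 0.973 for Casp4 and Casp12 and 0.930 for Casp1 and Casp12. It was 0.471 for Birc2 and Birc3 and -0.475 for Casp1 and Birc2. These are descriptions over 6 points that share libraries, depth and the split of heart and kidney markers.

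Birc3 shares more sequence with other genes than the other members do. Of the 40-base words in its GENCODE M21 transcripts, 9.25% also occur in transcripts of other genes, Gm7019 first among them, compared with 1.92% for Birc2, 0.775% for Casp4 and 0 of 1458, 3875 and 2815 words for Casp1, Casp12 and Ripk2. Birc2 and Birc3 share 75 such words with each other, and no caspase shares a word with another. The counter's default drops multiply mapped pairs, and its effect on the Birc3 level was not tested. The comparison covers transcripts only, and not the rest of the genome.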

How the data were processed

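RNA-seq read pairs were counted in 6 libraries, 3 labelled wild type and 3 labelled degeneration. The deposited values are raw counts per gene name made by the authors with featureCounts 2.0.1, per the file headers, from paired reads with both ends mapped and no chimeric pairs, without a strand option. No header names a build. Per the submitters' processing notes, which assign no role, Bowtie 0.12.2, mm8 and mm9 were involved. The design text of the series speaks of retina and was not followed. Another deposited table was left out, with its FPKM, because the names of its 12 value columns match no label.

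CPM used each library's total over all 53546 rows. Rows were set against GENCODE M21 exons (bedtools 2.31.1), assuming reads placed on GRCm38. A row in register has 90% of its length on exons of the gene it is named for. Rows in register kept their gene, and any other row was given by position, whatever its name, to the gene that held at least 100 bases and 80% of the exon bases under it, and rows of 1 gene were summed into a locus, 10913 in all. Read pairs carry no molecular identifier and may repeat a molecule. A count of 3 was the floor (0.748 to 0.962 CPM).

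The comparison used edgeR 4.0.16 under R 4.3.3 (quasi-likelihood, filterByExpr, TMM scaling, Benjamini-Hochberg over all rows, threshold 0.05), checked on simulated counts. Those had the spread of the wild type libraries and no split within a group. They do not show how the test behaves where the degeneration libraries are split, as here. Alternatives were DESeq2 1.42.0, limma-trend (limma 3.58.1), other scalings and filters, a replicate block, loci by position and libraries left out; the fits of the loci without degeneration 1, or without 2 and 3, were added after seeing the data. The members, the gene lists and the rules were chosen with earlier results of these data known. Genes named were the 6 members, up to 3 of each pathway list by level per kb and 2 by size of log2 fold change, up to 2 markers per list by CPM, neighbours within 500 kb and the 5 loci most like Casp1 and Casp4; a few others are said to be named after their values were seen. A locus that the rule names is not reported here.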

Additional observations from a re-analysis of the deposited data

How the results depend on the processing

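The count of rows called with all 6 libraries was 0 by edgeR under the other scalings, filters, the loci by position and the rows in register, and by limma-trend, and 969 by DESeq2. Leaving out 1 library gave 0 to 8703 calls, the latter without degeneration 1, and leaving out degeneration 2 and 3 gave 2; the cause was not tested. Casp1, Casp4 and Casp12 had a negative log2 fold change in every planned fit (17 for Casp1, which is not in register, and 18 for the others), from -1.84 to -1.17, from -1.61 to -0.90 and from -2.05 to -0.80. As their groups did not overlap, leaving out libraries could hardly turn that sign. Birc2 turned to 0.19 with library totals alone and to 0.017 among rows in register. Birc3 and Ripk2 were negative in 18 planned fits, and called only without degeneration 1. Whether the replicate numbers pair the libraries was not settled. Deviations of same-numbered libraries correlated at -0.04, 0.09 and -0.09, and not every library correlated best with its own number. Against each wild type library, degeneration 1 had the opposite sign to degeneration 2 and 3, so this check can neither show nor exclude pairing. With the replicate block 0 rows were called, and 1825 had an unadjusted p under 0.05 in place of 2596. With 22 to 26 read pairs in degeneration, Casp1 is limited by counting error.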
